A study of Arabidopsis thaliana with 12 samples.

Results

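The comparison of early night (ZT9) with midday (ZT4) rested on 6 of the 12 samples of the series, namely the 3 SOB3-GFP ChIP-seq peak lists of each time point, and asked which sites of the Arabidopsis genome SOB3 occupied more or less strongly after dusk. Peaks of the 6 lists that shared at least 1 bp were merged into 27598 nuclear sites, and each site was described by the lists that held it, by its rank within each list and by the genes and region classes around it. All seedlings were Columbia (Col-0) plants of the line ProSOB3::SOB3-GFP sob3-4, in which the fusion is driven by SOB3's own promoter in a sob3 mutant, and were grown at 8 h light and 16 h dark. Whole plants were taken at 5 days of age, 4 h after dawn for ZT4 and 9 h after dawn, in darkness, for ZT9, and chromatin was precipitated with an antibody to GFP. The 3 lists at the following dawn (ZT24) served only as background, input files were not used here, and plants without GFP were not analysed here. The methods call the lists of a time point biological replicates, but no source used here says whether their seedlings were sown apart, so p-values may measure only the spread between these lists, which may in part be technical.

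SOB3 belongs to a plant family of nuclear proteins with an AT-hook (AHL), whose members bind AT-rich DNA in the minor groove, and it restrains elongation of the seedling stem. The circadian clock of Arabidopsis is built from morning genes such as LHY and CCA1, day and dusk genes such as PRR7, PRR5, GI and TOC1, and the evening complex of ELF3, ELF4 and LUX. Evening genes repress the morning genes and, through PIF transcription factors, gate growth to the late night. In short days PIF proteins and auxin synthesis drive hypocotyl growth, so binding near clock, PIF and auxin genes bears on the growth that SOB3 restrains.

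Among the clock genes, 4 promoter sites changed in fold rank, and the reference sequence at each (RefSeq, TAIR10.1, plus strand, up to 60 bases on either side of the mean ZT9 summit, stopping where the gene's own transcript begins) is shown because these sites carry the comparison at the core of the clock. Capitals mark matches to GGNCCA (a core of TCP binding sites) or AATATATT (an AT-rich octamer) on either strand, and AAATATCT (the evening element) and CACGTG (the G-box) were also searched.
GI promoter, chr1:8061671-8061750: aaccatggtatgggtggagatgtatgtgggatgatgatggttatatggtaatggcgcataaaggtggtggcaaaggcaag
PRR7 promoter, chr5:642332-642451: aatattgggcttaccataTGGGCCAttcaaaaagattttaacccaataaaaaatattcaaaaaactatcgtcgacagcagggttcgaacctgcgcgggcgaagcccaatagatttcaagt
TOC1 promoter, chr5:24674600-24674719: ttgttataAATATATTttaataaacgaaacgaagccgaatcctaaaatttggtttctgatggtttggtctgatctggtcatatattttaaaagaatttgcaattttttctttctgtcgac
LHY promoter, chr1:38089-38208: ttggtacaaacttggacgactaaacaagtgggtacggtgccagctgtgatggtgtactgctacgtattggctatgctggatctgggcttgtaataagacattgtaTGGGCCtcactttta
The GI sequence ran up to the annotated start of the gene and held none of the motifs searched. The PRR7 sequence ran into an annotated tRNA gene, AT5G02815. In 300 bases around the summit GGNCCA matched 3 times at PRR7 and 3 times at LHY (overlapping matches on the opposite strands are counted apart), and AATATATT once at TOC1.

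The 6 lists were of like size. They held 24437, 22745 and 22534 peaks at ZT4 (replicates 1, 2 and 3, the order used throughout) and 24463, 22267 and 20988 at ZT9, a difference of -666 peaks (exact two-sided permutation test, p = 0.6, where 3 lists against 3 cannot go below 0.1). Between 57.5% and 59.4% of peaks lay in promoters (1000 bp before to 100 bp after a transcription start) in every list, and for the 5 region classes exact permutation tests of the shares gave adjusted p from 0.75 to 1.0. The files give no read totals. The genome-wide mean pileup, which grows with depth, was 12.3 to 15.8 fragments over the 6 lists, lowest in ZT4 replicate 3.

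Of the 27598 merged sites, 14318 (51.9%) had a peak in all 6 lists, 190 (0.688%) had one in all 3 ZT9 lists and no ZT4 list, and 435 (1.58%) in all 3 ZT4 lists and no ZT9 list. Leaving out ZT4 replicate 1 raised the ZT9-only count to 500, leaving out ZT9 replicate 2 or 3 raised it to 353 or 493, and leaving out ZT4 replicate 2 or 3 or ZT9 replicate 1 raised the ZT4-only count to 769, 829 or 913. Sites of either class were weak. Their median fold enrichment was 2.22 at ZT9-only and 2.24 at ZT4-only sites against 3.22 at sites in all 6 lists, and the middle site of each class stood at percentile 26.5 and 25.8 of the peaks of a list. At ZT4-only sites the highest fold enrichment was 4.12 and at ZT9-only sites 3.57. Absence means that no peak passed the authors' threshold there, not that the pileup was 0.

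**Figure D1:**
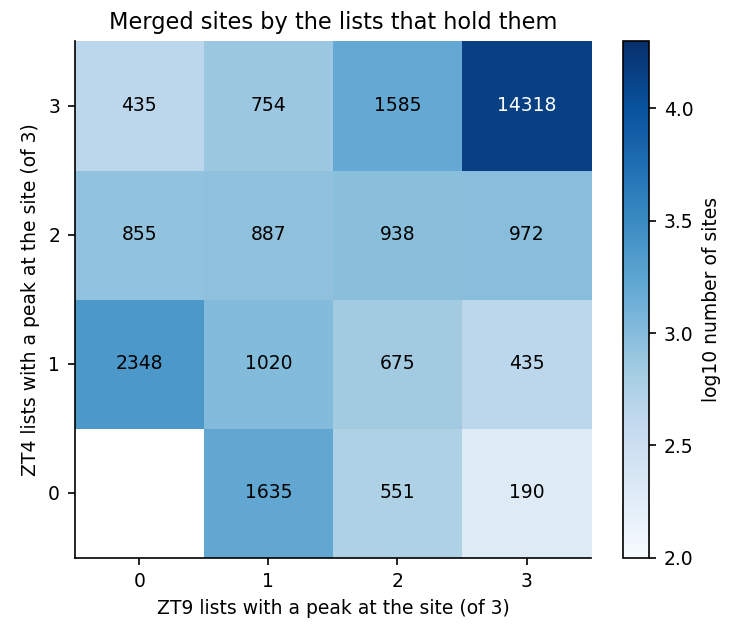
Number of merged sites by how many ZT9 lists (x axis, of 3) and how many ZT4 lists (y axis, of 3) held a peak there, coloured by log10 of the number. The corner of sites in all 6 lists holds 14318, and the corners of sites held by every list of 1 time point alone hold 190 (ZT9) and 435 (ZT4).

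The single-time sites were partly seen again at dawn. Of the ZT9-only sites 21.6% were in all 3 ZT24 lists and 26.3% in none, while of the ZT4-only sites 32.0% were in all 3 and 19.3% in none. Among sites in all 6 lists, which were stronger, 94.7% were in all 3 ZT24 lists. Sites in 3 to 5 lists were about as weak as the single-time sites, with the middle site at percentile 25.4. Of these, 42.6% were in all 3 ZT24 lists and 11.1% in none. Many single-time sites lay beside a peak of the other time point, since 45.3% of ZT9-only and 42.1% of ZT4-only sites had one within 1000 bp. ZT4-only sites were at transcript ends (100 bp before to 1000 bp after) in 25.5% of cases and in promoters in 48.7%, ZT9-only sites in 17.9% and 58.9%, and sites in all 6 lists in 14.3% and 60.6%. These shares are a description of the merged sites and were not tested.

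**Figure D2:**
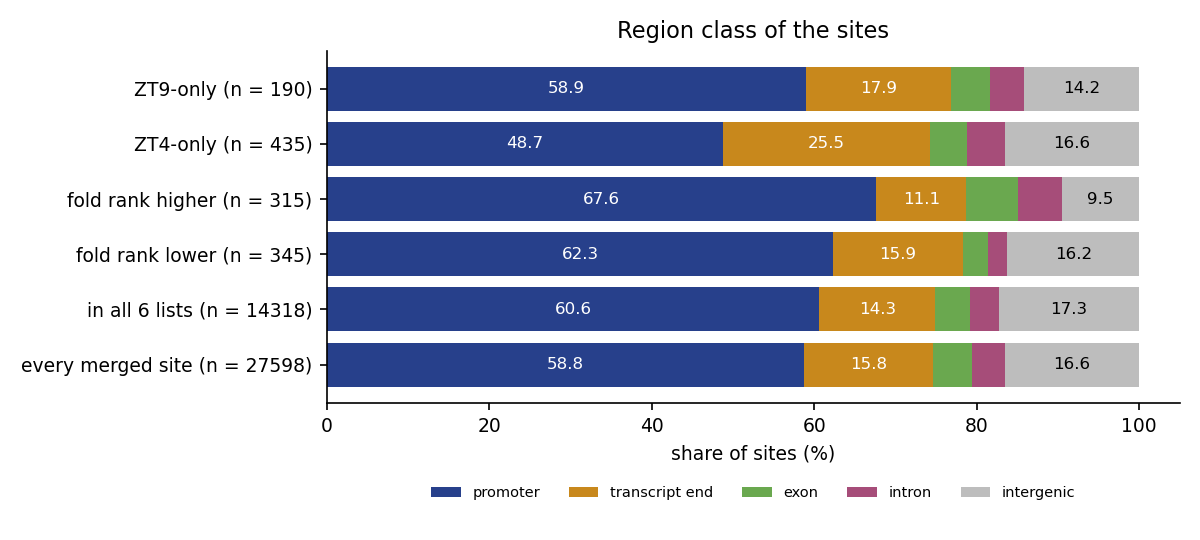
Share of sites (x axis, %) in each region class for sites held at 1 time point alone, sites with a higher or lower fold rank at ZT9, sites in all 6 lists and every merged site, with the number of sites beside each bar. Transcript ends take 25.5% of ZT4-only sites against 14.3% of sites in all 6 lists.

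The 190 ZT9-only sites held 1 site of a clock gene and 1 of a flowering gene, of 32 and 47 such sites among the 27598 merged, and both were among the 10 ZT9-only sites highest in mean fold percentile. ELF4, a subunit of the evening complex, had a peak at its transcript end (chr2:16733989-16734436) with pileups of 52, 45 and 63 fragments and fold enrichments of 2.94, 2.62 and 3.26 at ZT9. No ZT4 and no ZT24 list had a peak there, although the ELF4 promoter was bound in all 6 lists with pileups of 152, 141 and 139 at ZT4 and 117, 135 and 111 at ZT9. COL9, a CONSTANS-like regulator of flowering, had a peak over its transcript end (chr3:2444081-2444617) with pileups of 53, 41 and 54 at ZT9 and in 0 of the ZT4 and ZT24 lists. The first in rank was the promoter of SPHK2, a sphingosine kinase gene, with pileups of 46, 47 and 44, and this site was in all 3 ZT24 lists.

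The other ZT9-only sites among the first 10 lay at the promoters of MGDC (a galactolipid synthase), AAE14 (an enzyme of phylloquinone synthesis), AT5G23510, AT5G39410 and AT5G07590, at the transcript end of UMAMIT15 (a transporter) and between genes near AT5G55780. Their pileups ran from 39 to 59 fragments. All but 1 of these values lay under the median pileup of the ZT9 lists, which was 54 to 55.

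At midday alone the strongest site was the promoter of AT1G77960, with pileups of 74, 69 and 50 at ZT4 and a ZT9 peak 572 bp away. The promoter of UGT74B1, a glucosyltransferase of glucosinolate synthesis, came second with 62, 57 and 46 and was in all 3 ZT24 lists, so that among the 3 times it lacked a peak at ZT9 alone. FER4, a ferritin gene, showed the same pattern with 67, 53 and 51. The others were LEA3, ATVPS33 (vacuolar sorting), AT5G53410, AT3G22090, AT1G32780, the resistance gene RPP4 and SQP2, a squalene monooxygenase-like gene. RPP4 and SQP2 have close copies beside them. Unique mapping drops reads that match several places, so the values at such copies are uncertain.

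By gene, 17715 genes had the nearest start to a peak in at least 1 of the 6 lists and 10288 in all 6. Only 95 genes (0.536%) were bound in the 3 ZT9 lists and no ZT4 list and 201 (1.13%) the other way. Leaving out 1 list at a time gave 146 to 286 and 255 to 456, the highest without ZT4 replicate 1 and without ZT9 replicate 1. None of the genes in 13 lists of clock, light, hormone, flowering, photosynthesis, starch, cold, AHL and TCP genes was among them. FLC, with a ZT4-only site, had a further peak in 1 ZT9 list, and the ZT9 peaks at AT2G37000 were not nearest to its start in every list.

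For the sites in all 6 lists the order of sites within a list was compared. Fold enrichment is the ChIP pileup (fragments over the summit) divided by a local background, and both were recovered for each peak from its deposited fold enrichment and −log10 p. A site takes the values of its peak of highest fold enrichment (its highest peak) in each list, so at long sites the lists can differ in the position measured, as at IAA7, FKF1 and BT2. Ranks were turned into normal scores (a difference of 1 is 1 standard deviation of the list) and tested with limma, with Benjamini-Hochberg adjustment over all 14318 sites.

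By fold rank 315 sites (2.20%) were higher and 345 (2.41%) lower at ZT9, 660 (4.61%) in all. By pileup rank 0 sites passed in either direction, with 1490 sites (10.4%) at an unadjusted p under 0.05, 761 higher (5.31%) and 729 lower (5.09%), and a lowest adjusted p of 0.140. By the rank of −log10 p limma also called 0 sites, with 2441 (17.0%) at an unadjusted p under 0.05, 1219 higher (8.51%) and 1222 lower (8.53%), and a lowest adjusted p of 0.0547. The fold calls needed every one of 4 lists: without ZT4 replicate 1, 2 or 3 or ZT9 replicate 3 there were 0 calls, and without ZT9 replicate 1 or 2 there were 41 or 37 higher and 64 or 63 lower.

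The recovered background moved with the fold calls. At 280 of the 315 higher sites (88.9%) background ranks were lower in all 3 ZT9 lists than in any ZT4 list, and at 313 of the 345 lower sites (90.7%) they were higher. Over all tested sites such separation held for 27.9% and 28.5%, and a fit added after seeing the data called 3054 sites (21.3%) higher and 2998 (20.9%) lower in background. Fold enrichment is divided by this background, so part of that link is arithmetic. The series has 1 input per time point. Input and time of day cannot be told apart in the background. Lists called against the same input do not vary in it, so the fold rank p-values leave out the error of the input.

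Across sites, background had Spearman correlations of 0.742 to 0.759 between lists of the same time and of 0.162 to 0.177 between times, whereas for pileup the ranges were 0.867 to 0.891 and 0.841 to 0.878 (across 14318 sites that share libraries and base composition). The pileup differed in the direction of the fold call, with no overlap of its percentiles between the groups, at 132 of the 315 higher sites (41.9%) and 127 of the 345 lower sites (36.8%). Over all tested sites 8.00% were higher and 8.46% lower in this way. Since pileup is part of fold enrichment, the comparison is a description. The sites and genes below are given with both measures.

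**Figure D3:**
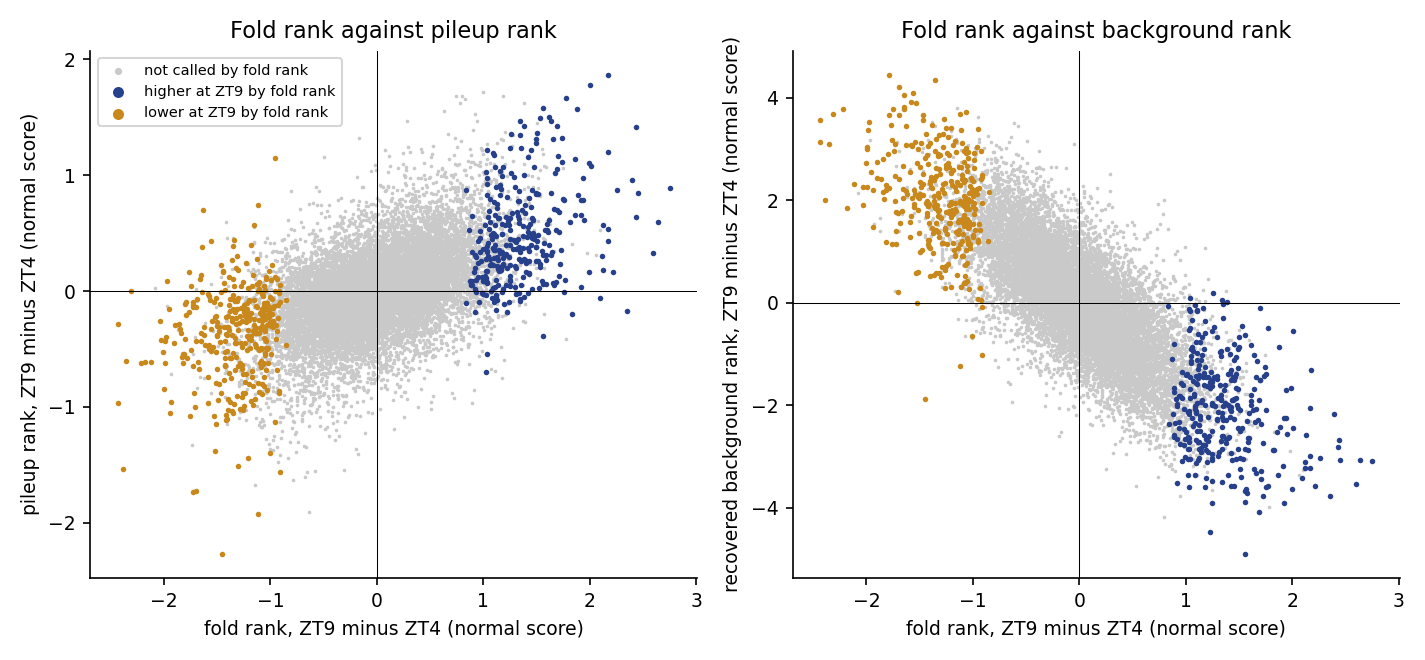
Difference of ZT9 minus ZT4 in normal scores at 14318 shared sites, with fold rank on the x axis and pileup rank (left) or recovered background rank (right) on the y axis. Blue points are the 315 sites higher and ochre points the 345 sites lower at ZT9 by fold rank, grey points the rest. In the right panel 280 of the blue sites have lower and 313 of the ochre sites higher background ranks at ZT9 without overlap.

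By fold rank the promoters of TOC1, PRR7 and GI, among the day and dusk genes, were higher at ZT9 and that of the morning gene LHY was lower. No other clock site passed, among them those of CCA1, PRR5, ELF3 and PCL1 (LUX). At the promoter of the evening gene ELF4 every ZT9 pileup, in fragments, lay below every ZT4 pileup. Of 27 shared sites at 22 clock genes 3 were higher and 1 lower by fold rank, against 2.20% and 2.41% of all tested sites. The median difference over the 27 sites was 0.38 in fold rank and 0.14 in pileup rank, against 0.00 and 0.00 over all tested sites. Pileup percentiles did not overlap at 6 sites that were higher (22.2%, against 8.00%) and 1 that was lower at ZT9 (3.70%, against 8.46%), and 3 of these 6 were at GI, so the sites are not independent.

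At the promoter of TOC1, a dusk repressor of the morning genes, the pileup was 69, 65 and 59 fragments at ZT4 and 82, 91 and 74 at ZT9, and the fold enrichment was 2.99, 2.54 and 2.81 against 4.12, 4.14 and 3.31. Neither measure overlapped between the times. The site moved from percentile 28.8 ± 1.39 to 70.8 ± 4.60 of the shared sites by fold enrichment (SD, n = 3) and from 49.9 ± 6.98 to 74.2 ± 5.16 by pileup. The fold rank difference was 1.11 ± 0.20 (SE, limma adjusted p = 0.0287), and the pileup rank did not pass (adjusted p = 0.307).

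At the PRR7 promoter (chr5:641896-642595), a pseudo-response regulator that represses CCA1 and LHY, the pileup was 57, 57 and 50 at ZT4 and 67, 70 and 59 at ZT9, and the fold enrichment 2.62, 2.52 and 2.72 against 4.11, 3.93 and 3.15. All ZT9 values lay above all ZT4 values. The fold rank rose by 1.23 ± 0.23 (limma adjusted p = 0.0293) and the pileup rank difference was 0.58 (adjusted p = 0.385).

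GI, a dusk protein of the clock and of the photoperiod response, had 3 shared sites. At its start (chr1:8061488-8061947) the pileup was 83, 62 and 57 at ZT4 and 81, 82 and 90 at ZT9, so that ZT4 replicate 1 overlapped in fragments, while its percentile of 53.1 ± 7.61 at ZT4 and 76.0 ± 7.34 at ZT9 (SD, n = 3) did not. Fold enrichment was 3.50, 2.56 and 3.01 against 4.34, 3.97 and 4.04, and its rank rose by 1.05 ± 0.22 (limma adjusted p = 0.0398; pileup rank adjusted p = 0.348). The 2 sites further upstream had pileups of 82, 84 and 67 against 101, 95 and 88, and of 97, 87 and 76 against 99, 99 and 95, and neither passed by fold rank (adjusted p = 0.109 and 0.442).

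LHY went the other way by fold rank. Its promoter site (chr1:37797-38379) had fold enrichments of 3.48, 3.00 and 2.93 at ZT4 and 2.57, 2.26 and 1.99 at ZT9, and its rank fell by 0.99 (SE 0.22, limma adjusted p = 0.0459). The pileup was 65, 59 and 46 against 54, 57 and 53, with a rank difference of -0.07 (adjusted p = 0.936), and the background was 18, 19.0 and 15 against 20.4, 24.7 and 26.1. At LHY the backgrounds did not overlap and the pileups did. CCA1, its partner, had pileups of 87, 73 and 54 against 68, 76 and 71 and did not pass (fold rank adjusted p = 0.278).

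For TOC1, PRR7, GI and LHY the background ranks within the lists did not overlap between the times, being lower at ZT9 for the first 3 and higher for LHY. None of these 4 calls held in any fit that left out 1 list, with adjusted p between 0.0676 and 0.123. At the other clock genes, PRR9, PRR5, ELF3, RVE8 and PCL1 (LUX) among them, no fold rank passed. The FKF1 promoter, a photoreceptor gene of flowering, had pileups of 67, 58 and 56 against 69, 71 and 63 with a fold rank adjusted p of 0.124.

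**Figure D4:**
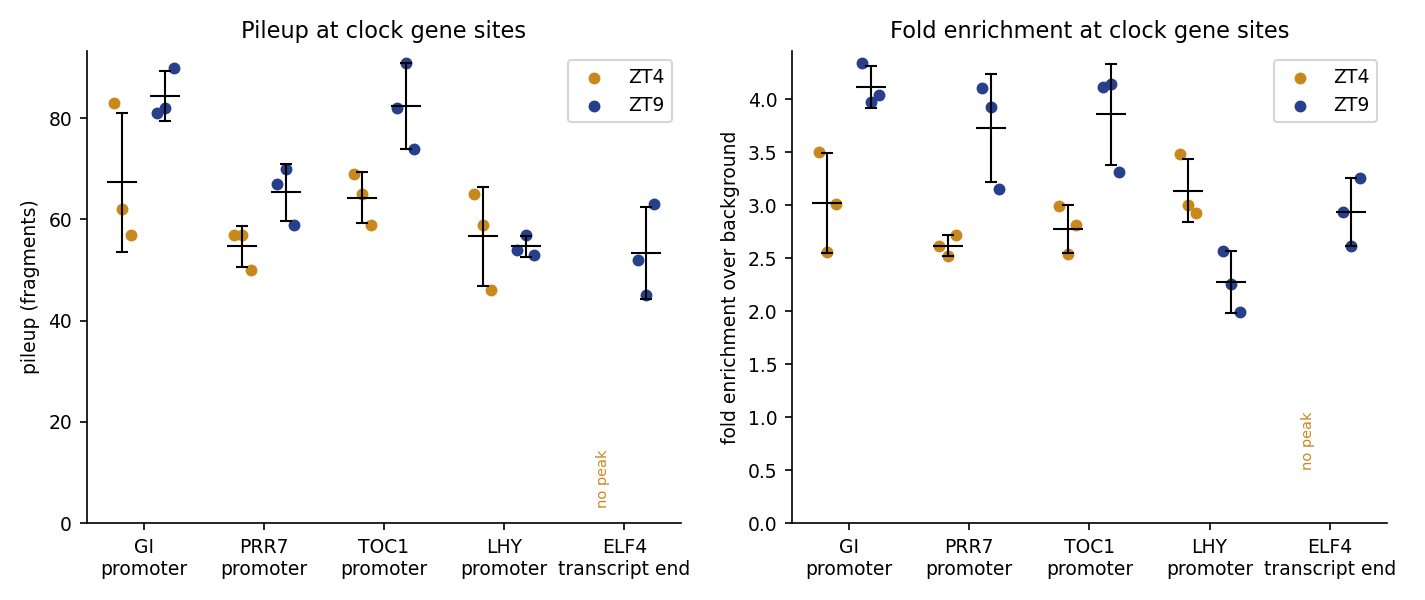
Pileup in fragments (left) and fold enrichment over background (right) in each list at clock gene sites, with ZT4 in ochre, ZT9 in blue, and bars for the mean ± SD of 3 lists. At TOC1 and PRR7 every ZT9 point lies above every ZT4 point in both panels, at LHY the times separate in fold enrichment only, and the ELF4 transcript end has no ZT4 peak.

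Auxin genes had called sites in the lower direction. Of 76 shared sites at 34 auxin genes 0 were higher and 5 lower by fold rank, against 2.20% and 2.41% of all tested sites, and 3 further sites were held by the ZT4 lists alone. By pileup percentiles 5 sites were higher and 11 lower without overlap (6.58% and 14.5%, against 8.00% and 8.46%), and 49 of 76 sites were negative in log2 pileup, against 7369 of 14318. The 5 called sites were at YUC9 and YUC3 (enzymes of auxin synthesis), IAA17 and IAA7 (Aux/IAA repressors) and MP (the auxin response factor ARF5). At all 5 the background ranks were higher at ZT9 without overlap. Pileup percentiles separated between the times at YUC9 alone. Without ZT4 replicate 1, 2 or 3 or ZT9 replicate 3 none of these calls held.

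At YUC9 (chr1:1102824-1103555, between genes) the fold enrichment was 5.04, 3.77 and 4.51 at ZT4 and 2.86, 2.28 and 2.23 at ZT9 and its rank fell by 1.55 (SE 0.23, limma adjusted p = 0.0171). The pileup was 105, 79 and 76 against 75, 71 and 72 and the background 20, 20.2 and 16.1 against 25.5, 30.6 and 31.7. Neither pileup percentiles nor backgrounds overlapped between the times. At MP the pileup was 88, 67 and 49 against 59, 50 and 50 with fold enrichments of 4.76, 3.39 and 3.21 against 2.42, 2.40 and 2.27 (adjusted p = 0.0373). The called YUC3 site lay between genes, 5141 bp from its start. Its pileup was 95, 86 and 88 against 85, 76 and 71, and its background 17.4, 20.8 and 17.7 against 23.0, 26.4 and 27.0.

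At the IAA17 promoter the pileup of 77, 56 and 56 against 68, 43 and 53 overlapped between the times, while the fold enrichment of 3.81, 2.80 and 3.22 against 2.60, 1.77 and 1.86 did not (adjusted p = 0.0436). At the IAA7 site, between genes and 4360 bp from its start, the pileup was 51, 39 and 41 against 45, 52 and 50, against the direction of its fold call. Peaks held at ZT4 alone lay at the promoters of YUC3 (43, 45 and 35 fragments) and IAA29, a PIF-induced Aux/IAA gene (53, 50 and 37), and in an exon of EIR1, the auxin exporter PIN2 (49, 47 and 47). The IAA29 site was in all 3 ZT24 lists and had a ZT9 peak 412 bp away.

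PIF genes and their targets had 57 shared sites at 26 genes, with 0 called by fold rank in either direction, against 4.61% of all tested sites. Their pileup percentiles were lower at ZT9 without overlap at 11 sites (19.3%, against 8.46% of all sites) and higher at 1 (1.75%, against 8.00%), and 44 of the 57 had a negative log2 pileup difference, against 7369 of all 14318, with a median of -0.09 against -0.01. Several sites lay at the same gene, so they are not independent. Background ranks of this list were also lower at ZT9 without overlap at 22 sites and higher at 9, against 27.9% and 28.5% of all tested sites. The median difference in fold rank was -0.08. No single site passed by pileup rank. PRE1, a growth-promoting helix-loop-helix gene, had promoter pileups of 82, 66 and 73 at ZT4 and 54, 57 and 54 at ZT9, with fold enrichments of 4.37, 3.35 and 4.65 against 3.18, 3.05 and 2.79 (fold rank adjusted p = 0.123). Its relative BNQ2 had 81, 85 and 76 against 64, 65 and 59. HAT2, a homeodomain gene of the shade response, had a weak site between genes at ZT9 alone (35, 36 and 38 fragments), with a ZT4 peak 459 bp away.

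Clade A AHL genes, the family of SOB3 itself, had 18 shared sites with 0 called by fold rank, against 4.61% of all tested sites. In pileup percentile 1 was higher and 4 lower without overlap (5.56% and 22.2%, against 8.00% and 8.46% of all tested sites). A site upstream of SOB3 was among the lower ones, with pileups of 106, 91 and 90 against 84, 77 and 75 at summits that differed within each time, but the transgene carries the SOB3 promoter and reads from it and from the gene cannot be told apart. TCP genes had 39 shared sites with 0 called by fold rank, against 4.61% of all tested sites. In pileup percentile 2 were higher and 8 lower without overlap (5.13% and 20.5%, against 8.00% and 8.46%). AT2G37000 of this family had a weak promoter peak at ZT9 alone (40, 43 and 44).

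Cold genes had 0 of 14 shared sites called by fold rank in either direction, against 4.61% of all tested sites. Pileup percentiles were higher without overlap at 4 (28.6%, against 8.00%) and lower at 0 (against 8.46%). AT4G33980 had promoter pileups of 87, 75 and 66 at ZT4 and 108, 107 and 99 at ZT9 and fold enrichments of 4.39, 3.77 and 3.99 against 6.36, 5.82 and 4.25. Its fold rank did not pass (adjusted p = 0.0607), and its log2 pileup difference of 0.49 ± 0.10 passed in the log2 alternative (adjusted p = 0.0490). In ZT9 replicates 1 and 2 the summit lay at another position within the site than in the other lists. COR27, a cold-induced gene that also feeds back on the clock, had 85, 68 and 67 against 94, 102 and 83 (pileup rank adjusted p = 0.310).

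Gibberellin genes had 41 shared sites, with 0 higher and 1 lower by fold rank, against 2.20% and 2.41% of all tested sites. In pileup percentile 1 was higher and 7 lower without overlap (2.44% and 17.1%, against 8.00% and 8.46%). The call was at ATGA2OX1, an enzyme that inactivates gibberellin, where fold enrichment was 6.24, 5.44 and 6.29 at ZT4 and 3.76, 2.89 and 2.75 at ZT9 (adjusted p = 0.0209), the pileup was 112, 98 and 92 against 102, 78 and 71, and the background 17.1, 17.2 and 13.8 against 26.4, 26.4 and 25.2. A second site in its promoter was held at ZT4 alone (49, 51 and 48), with a ZT9 peak 530 bp away. RGL2, a DELLA repressor, had a weak ZT4-only site and 2 shared sites with lower pileups, one in its exon (60, 55 and 43 against 42, 38 and 35). The ATGA2OX1 call was lost where ZT4 replicate 1, 2 or 3 or ZT9 replicate 3 was left out.

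Brassinosteroid genes had 39 shared sites, with 0 higher and 1 lower by fold rank, against 2.20% and 2.41% of all tested sites, and 1 higher and 2 lower in pileup percentile without overlap (2.56% and 5.13%, against 8.00% and 8.46%). BIN2, the kinase that blocks brassinosteroid signalling, had a high site, with fold enrichments of 11.3, 9.82 and 11.9 at ZT4 and 7.27, 7.05 and 6.15 at ZT9 (adjusted p = 0.0335) and pileups of 217, 200 and 190 against 130, 186 and 183. The value of ZT9 replicate 1 came from a summit at 10296264 of chromosome 4, while those of the other lists lay between 10295282 and 10295303, so it belongs to another position within the merged site. BAS1, which inactivates brassinosteroids, had a weak ZT4-only site (45, 44 and 33) beside a shared promoter site. The BIN2 call did not hold without ZT4 replicate 1, 2 or 3 or ZT9 replicate 3.

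Photosynthesis genes had 23 shared sites, with 1 higher (LHCB3) and 1 lower (RBCS1A) by fold rank, against 2.20% and 2.41% of all tested sites, and 0 higher and 3 lower in pileup percentile without overlap (13.0% lower, against 8.46%). The LHCB3 promoter had pileups of 61, 59 and 54 against 58, 73 and 71, which overlapped, with fold enrichments of 2.46, 2.09 and 2.64 against 3.13, 3.46 and 3.50 (adjusted p = 0.0436). At RBCS1A, the small Rubisco subunit, a site between genes had fold enrichments of 4.83, 4.16 and 4.66 against 3.00, 3.00 and 2.54, and pileups were 86, 78 and 69 against 76, 68 and 63 (fold rank adjusted p = 0.0320). LHCB4.1 had a ZT9-only promoter peak, and CAB2 and LHCB2.1 had ZT4-only peaks in an exon and at a transcript end. A ZT4-only site with CAB1 as its nearest start had its summit within another gene, NRPA2. The LHCB2.1 site had a ZT9 peak 670 bp away. The CAB and LHCB2 genes are near-identical copies, and unique mapping leaves their values uncertain. Background ranks did not overlap between the times at LHCB3 (lower at ZT9) or at RBCS1A (higher at ZT9), while pileup percentiles overlapped at both. The calls at LHCB3 and RBCS1A were lost wherever ZT4 replicate 1, 2 or 3 or ZT9 replicate 3 was left out.

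Flowering genes had 33 shared sites, with 0 called by fold rank, against 4.61% of all tested sites. In pileup percentile 4 were higher and 4 lower without overlap (12.1% each, against 8.00% and 8.46%). CDF3, a repressor of flowering, had promoter pileups of 116, 96 and 97 at ZT4 and 71, 80 and 71 at ZT9, and TEM1, another, had 125, 107 and 96 against 132, 127 and 115. The FLC promoter, within an annotated noncoding RNA gene, had a ZT4-only peak (36, 50 and 34). Light signalling genes (25 sites) and starch genes (11 sites) had 0 fold rank calls in either direction, against 4.61% of all tested sites. In pileup percentile 2 light signalling sites were higher and 1 lower without overlap (8.00% and 4.00%). Of the starch sites 1 was higher and 2 were lower (9.09% and 18.2%), against 8.00% and 8.46% of all tested sites. A list of 26 genes that the study examined had 49 shared sites with 0 higher and 1 lower by fold rank, against 2.20% and 2.41% of all tested sites, and 0 higher and 6 lower in pileup percentile without overlap (12.2% lower, against 8.46%).

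**Figure D5:**
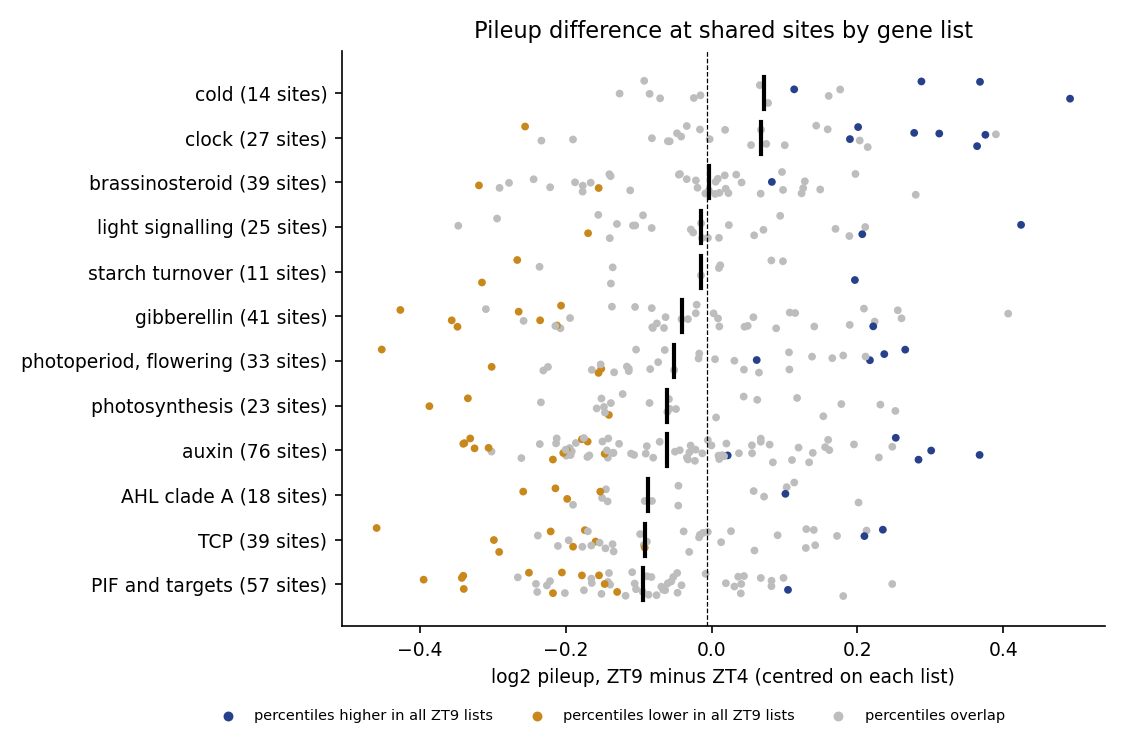
Difference in log2 pileup between ZT9 and ZT4 (x axis, centred on each list's median) at each shared site of 12 gene lists. Blue and ochre points have pileup percentiles that do not overlap between the times, black bars are list medians and the dashed line is the median of all 14318 sites. Clock and cold genes have medians of 0.07 and 0.07, PIF genes and their targets -0.09.

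Outside these lists, the 10 higher sites with the largest fold rank difference and pileup percentiles that did not overlap were led by the promoters of AT4G32272 and AT1G01260. AT4G32272 had fold enrichments of 2.23, 1.66 and 1.67 at ZT4 and 3.50, 3.65 and 3.24 at ZT9, a rank difference of 2.75 ± 0.33 (adjusted p = 0.0158). Its pileups of 59, 49 and 40 against 60, 65 and 63 moved less than its background of 25.9, 29.1 and 23.5 against 16.4, 17.1 and 18.7. The same set held EPF1, a peptide that restricts stomata, REV3 (a DNA polymerase subunit), RLP32 (a receptor-like protein), CSLA11, AT4G38560, AT2G04690, AT1G17345 and AT3G02070. These names are those of the nearest start. The summits for REV3, RLP32 and AT4G38560 lay within other genes, AT1G67510, RLP33 and AT4G38550.

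Of these, REV3 also passed in log2 pileup (adjusted p = 0.0490), with 41, 33 and 30 fragments against 61, 48 and 43. The fold rank differences of the 10 ran from 2.12 to 2.75, and their background ranks were lower at ZT9 without overlap in every case.

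The 10 lower sites were led by the promoter of SQP1 (chr5:8176245-8176857), a squalene monooxygenase-like gene beside SQP2. Its pileup was 67, 64 and 60 fragments at ZT4 and 40, 43 and 43 at ZT9, and its fold enrichment 3.64, 3.08 and 4.49 against 1.84, 1.90 and 1.74. The rank fell by 2.39 (SE 0.27, adjusted p = 0.0158), the site went from percentile 59.5 ± 15.1 to 1.79 ± 0.814 of the shared sites by fold enrichment, and its pileup also passed in the log2 alternative (adjusted p = 0.0328). Its neighbour SQP2 held a ZT4-only site, and unique mapping leaves the values of these close copies uncertain.

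The set also held ATERDJ3A (a chaperone of the endoplasmic reticulum), EML2, CAX2 (a vacuolar cation exchanger), RHA1A, BT2, AT1G75770, AT1G13143, AT1G02490 and AT3G26510, named by the nearest start. The summits for ATERDJ3A and AT1G13143 lay within AT3G08960 and AT1G13130, and the CAX2 site lay 4937 bp from its start. BT2 had pileups of 65, 55 and 46 against 39, 44 and 46, and AT3G26510 had 67, 78 and 67 against 53, 50 and 47. The background ranks were higher at ZT9 without overlap at all 10. Without ZT4 replicate 1, 2 or 3 or ZT9 replicate 3 none of the 20 fold calls held.

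Taking log2 pileup centred on each list in place of its rank called 63 sites (0.440%), 35 higher (0.244%) and 28 lower (0.196%) at ZT9, of which 28 were also called by fold rank in the same direction and 10 had background ranks that separated in the opposite direction. The 4 with the smallest adjusted p, chosen after their values were seen, were AT2G40460, AT1G27020, ERD5 and LRR XI-23. The AT2G40460 promoter had pileups of 116, 92 and 68 at ZT4 and 36, 47 and 47 at ZT9, a difference of -1.04 ± 0.13 in log2 (adjusted p = 0.00399), and its background was lower, not higher, at ZT9. AT1G27020 had 48, 46 and 45 against 90, 76 and 79 (0.84 ± 0.12, adjusted p = 0.00604), with overlapping backgrounds.

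ERD5, the proline dehydrogenase that breaks down proline, had 67, 52 and 47 against 86, 98 and 91 (0.76 ± 0.11, adjusted p = 0.00642). This site lay between genes, 5628 bp from the ERD5 start, and the backgrounds of 24.8, 26.4 and 19.3 against 23.0, 26.4 and 25.2 overlapped there. LRR XI-23 had 45, 44 and 41 against 69, 77 and 64 (adjusted p = 0.0173). Its background of 17.7, 18.7 and 14.1 against 20.1, 24.7 and 25.2 was also higher at ZT9 without overlap. The fold rank there did not pass (limma adjusted p = 0.120). At these 4 sites no ZT9 pileup overlapped a ZT4 pileup, and by pileup rank none passed (lowest adjusted p over all sites 0.140).

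Peak shape differed at few sites. Log2 width changed at 92 sites (0.643%), with 22 wider (0.154%) and 70 narrower (0.489%) at ZT9. Of these, 82 had several peaks in some list, where a site can be called as 1 long peak or as several short ones. The sites named here were chosen after their values were seen, except those of listed genes. Width is that of the highest peak of each list at a site, not of the whole stretch bound. At AT4G33980 the highest peak was 433, 610 and 427 bp wide at ZT4 and 2088, 2113 and 2107 bp at ZT9 (adjusted p = 0.0165). At FKF1 it was 491, 407 and 402 bp against 1062, 991 and 1131 (adjusted p = 0.0226).

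Near RVE1, a clock-related gene of auxin control, the highest peak went from 4153, 4273 and 3972 bp to 1163, 1068 and 1163 (adjusted p = 0.0148). Near CPD, an enzyme of brassinosteroid synthesis, its width went from 1390, 1236 and 1227 bp to 384, 375 and 348 (adjusted p = 0.0121). Near HB-2, a shade-induced homeodomain gene, it went from 1466, 1258 and 1169 to 555, 520 and 493 (adjusted p = 0.0268). Near GLK2, a regulator of chloroplast development, it went from 1065, 825 and 1186 to 207, 233 and 231 (adjusted p = 0.0148). The CPD and HB-2 sites lay 4297 and 4799 bp from those starts, and the ZT9 lists did not share a highest peak there. The highest peak near GLK2 had 72, 64 and 58 fragments against 43, 50 and 40 (log2 pileup adjusted p = 0.0490), but its summit lay at a different position at each time. At AT4G33960 the highest peak had 98, 97 and 81 against 65, 59 and 58 fragments (log2 pileup adjusted p = 0.0286), again with summits at different positions, and its fold rank did not pass (adjusted p = 0.151). Width calls fell to 0 without ZT4 replicate 1 or any 1 ZT9 list, to 15 and 33 without ZT4 replicates 2 and 3, and to 0 where only sites with 1 peak per list were tested.

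Summits moved at 51 sites (0.356%), 22 towards higher (0.154%) and 29 towards lower coordinates (0.203%). Of these, 44 had several peaks in a list, where the highest peak can be a different one. The 5 largest shifts were at AT5G56555 (1641 bp), AT1G14590 (-1585 bp), AT5G64850 (1548 bp), AP1 (-1451 bp) and AT1G12120 (1380 bp). RAV2, PIL6 (PIF5) and AT1G35560 (a TCP gene) also had such shifts. Such positions jump between separate peaks and have no bell-shaped spread, so these adjusted p-values are too small.

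Among the 7 called sites with 1 peak in each list, the HSF4 promoter had summits at 17439635, 17439658 and 17439624 of chromosome 4 at ZT4 and at 17440242, 17440267 and 17440230 at ZT9, a shift of 607 ± 17.6 bp (SE, adjusted p = 0.000175). HSF4 encodes a class B heat shock factor. At NADP-ME2, a malic enzyme, the summit moved by -410 ± 16.0 bp, and at AGP20 by -501 ± 28.4 bp. Of 10250 shared sites with 1 peak per list, 10 had summits within 100 bp in each time point and more than 150 bp apart between them. Leaving out 1 list gave 74 to 111 calls in place of 51, the most without ZT4 replicate 1.

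The share of sites with each motif is given for 300 bases around the summit. The TCP-like GGNCCA, searched on both strands, was in 36.3% of all merged sites, 39.7% of sites in all 6 lists, 31.1% of ZT9-only, 26.0% of ZT4-only, 34.6% of fold-higher and 40.3% of fold-lower sites. Fold calls could arise only at sites in all 6 lists. The G-box CACGTG, which PIFs bind, was in 10.4% of all merged sites and 12.6% of sites in all 6 lists. It was in 8.57% of fold-higher and 14.2% of fold-lower sites. The evening element AAATATCT, bound by LHY and CCA1, was in 6.01% of all merged sites and 6.76% of sites in all 6 lists. It was in 6.67% of fold-higher and 8.41% of fold-lower sites. AATATATT was in 5.78% of all merged sites, 2.63% of ZT9-only and 5.75% of ZT4-only sites. These shares were not tested.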

How the data were processed

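The authors mapped uniquely placed reads to TAIR10 with Bowtie after bcl2fastq, and called peaks in each ChIP sample against input with MACS2 (versions not given in the sources used here). The deposited peak lists give fold enrichment, a ratio of pileup to local background, and −log10 p and −log10 q for each peak, at the summit given as an offset. There was 1 input per time point, and the study describes fold enrichment as relative to the respective input. The pileup and background were solved from fold enrichment and −log10 p, and a whole-number pileup fitted 100% of peaks within 0.001. The members and gene lists were chosen with earlier results of these data known.

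Nuclear peaks were merged by 1 bp overlap and placed by their centre among protein-coding transcripts of the RefSeq annotation of TAIR10.1 (27444 genes). A peak's gene was that of the nearest start. Sites in all 6 lists were ranked within each list by the highest peak, and normal scores, summit position and log2 width were tested with limma 3.58.1 in R 4.3.3, threshold 0.05 after Benjamini-Hochberg adjustment, on unpaired lists. Single values per list were tested by exact permutation in Python 3.11.15. The scripts were tested on simulated data. A simulated shift of 1 normal score unit was recovered at 16% of shifted sites by fold rank and 28% by pileup rank. A shift of 2 was recovered at 72% and 76%. Differences near 1 unit can thus go uncalled. With no shift 0 sites were called. The simulated lists varied independently and shared no input, so that result does not cover the error of the input. Named sites were the 10 highest in mean fold percentile at each single-time class, the 10 higher and 10 lower with the largest fold rank difference among called sites with separated pileup, any listed gene with a called, gained or lost site, and the 5 largest summit shifts; all sites called by pileup rank were to be named, and there were 0. Other genes named were chosen after their values were seen. Alternatives were a −log10 q of at least 5, a 100 bp overlap, leaving out each list, a replicate block, ranks of −log10 p, log2 values, all 9 lists, single-peak sites, all annotated genes and placement by summit. A fit of the recovered background was chosen after seeing the data. The files give no depth per list beyond the genome-wide mean pileup. Organelle peaks were left out.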

Additional observations from a re-analysis of the deposited data

Results flagged for a closer look

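Peaks on the organelle sequences, which no comparison used, were present in data outside the nuclear analysis. The chloroplast sequence held 41 peaks over the 3 ZT4 lists (13, 17 and 11) and 134 over the 3 ZT9 lists (100, 34 and 0), so most of the ZT9 peaks were in replicate 1. The mitochondrial sequence held 16 peaks over the ZT4 lists (6, 6 and 4) and 25 over the ZT9 lists, all in replicate 2. The spread between the ZT9 lists exceeded the difference between the times.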

How the results depend on the processing

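The stricter −log10 q of at least 5 and the 100 bp overlap kept every count within 1.5 times. Fold rank calls (315 higher, 345 lower) became 778 and 861 with log2 values, 542 and 560 with all 9 lists in the fit and 0 and 0 by rank of −log10 p. Leaving out 1 list gave 0 to 41 higher and 0 to 64 lower. Pileup rank calls (0 and 0) became 35 and 28 with log2 values and 4 and 4 with all 9 lists, and stayed 0 in every fit without 1 list. Summit calls (51) became 31 with all 9 lists and 6 at single-peak sites, and 74 to 111 without 1 list. Width calls (92) became 0 at single-peak sites and 0 to 33 without 1 list. Single-time sites (190 at ZT9, 435 at ZT4) became 242 to 500 and 535 to 913 without 1 list, and single-time genes (95 and 201) 146 to 286 and 255 to 456. The difference in peaks per list of -666 ranged from -1611 to 126 without 1 list (126 without ZT9 replicate 3), and that in promoter share from -0.333 to 0.484 percentage points (0.431 without ZT4 replicate 1), and was 0.270 with peaks placed by summit. The cause of these moves was not tested beyond the smaller number of lists.

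The replicate numbers did not pair the lists: deviations of same-numbered lists correlated at 0.0542, -0.0455 and 0.0224 in fold rank and 0.0673, -0.0385 and 0.0343 in pileup rank, and not every list correlated best with its own number. With the replicate block fold rank calls were 58 and 47, pileup rank calls 0 and 0, summit calls 24 and width calls 0.

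Among named sites signs turned only where a value was near 0. Without 1 list the CPD fold rank ranged from -0.306 to 0.0537 (0.0537 without ZT9 replicate 2), the LHY pileup rank from -0.158 to 0.0109 (0.0109 without ZT4 replicate 2) and the PIL6 pileup rank from -0.0597 to 0.143 (-0.0597 without ZT4 replicate 1 and -0.0147 without ZT9 replicate 2). The AT1G35560 fold rank was -0.000643 by rank of −log10 p. Merging does not enter the gene counts, so no value with another overlap was computed for them. The single input per time point and the peak threshold limit what these lists can show.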
